A study of Mus musculus with 4 samples.

Results

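The transcripts described here encode proteins that bind or remove N6-methyladenosine (m6A), an internal methyl mark of messenger RNA. The 10 genes were chosen by name: the YTH readers Ythdf1, Ythdf2, Ythdf3, Ythdc1 and Ythdc2, the further readers Hnrnpa2b1, Prrc2a and Igf2bp2, and the demethylases Fto and Alkbh5. They are 10 of 13035 genes with a listed peak. They carried 19 of 16709 peaks in the WT list, 26 of 21031 in the KO list and 9 of 6050 in the authors' deposited table of differences between genotypes. All of these peaks overlapped the RefSeq extent of the gene named, and 1 of them, at the Ythdf2 start, reached past its edge.

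The cells were C57BL/6 mouse macrophages grown from bone marrow with M-CSF, the growth factor of this lineage, for 7 days. WT cells had the genotype Mettl3fl/fl and KO cells the genotype LysM-cre, Mettl3fl/fl, so both carried floxed alleles of Mettl3, the catalytic m6A writer. In KO cells a recombinase under a promoter active in myeloid cells acts on them, and deletion need not be complete. For m6A-seq, poly(A) RNA was broken into fragments, those bound by an m6A antibody were sequenced (IP), and so was RNA that had not been precipitated (input). Each genotype had 1 IP and 1 input library, so no difference below has a replicate check, and the number of mice is not given in the labels.

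The macrophage markers with a listed input level were high in both genotypes. Cd68 stood at 1029 FPKM (a read level corrected for transcript length and sequencing depth) in WT and 994 in KO, and Adgre1 at 247 and 269. Levels were listed for 5 of 8 macrophage markers, with sums of 11940 in WT and 8038 in KO. The larger part of each came from the lysozyme gene Lyz2, at 10533 and 6615, and so did most of their difference. Spi1, at 90.5 in WT and 101 in KO, and Fcgr1, at 40.6 and 58.4, were not lower in KO. The neutrophil list had levels for 2 of 6 markers (sums 233 and 137), the dendritic list for 1 of 4 (71.9 and 46.7) and the B cell list for 1 of 4 (1.12 and 0.734). No level was listed for osteoclast, T and NK cell or stromal markers. Levels are deposited only for genes with a differential peak, so a missing level says nothing of expression, and 3 of 4 osteoclast and 2 of 4 stromal markers had a listed peak. The part of other cell types in the results below was not tested. Mettl3 had no WT peak and 1 KO peak, and its input level was not analysed here, so the genotypes were not checked on the target transcript. Read depth is unknown, since the files hold no read totals.

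m6A acts largely through the proteins that bind it. Readers with a YTH domain hold the methylated adenosine in a pocket of that domain. The cytoplasmic YTHDF proteins are best known for hastening decay of the bound transcript by recruiting a deadenylase, while nuclear YTHDC1 acts in splicing and export. FTO and ALKBH5 are iron-dependent oxygenases that remove the mark. The transcripts of these proteins can carry m6A themselves, and that is what the peaks below describe.

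Peaks were found on 8 of the 10 transcripts in WT and on all 10 in KO. Ythdc2 and Igf2bp2 were in the KO list alone, and no gene of the set was in the WT list alone. Over all genes with a listed peak, 65.3% were in both lists, 24.2% in KO alone and 10.4% in WT alone. By the authors' annotation of transcript part, the WT peaks comprised 4 in 5′ UTRs, 6 in other exons and 9 in 3′ UTRs, and the KO peaks 3, 8 and 15. Each peak has 1 label, also where its blocks span several exons, so the label does not place all of its bases. The WT peak of Ythdf3, labelled 3′ UTR, takes in 8 blocks and begins 0.09 kb from the gene start. The share with the 3′ UTR label was 47.4% in WT and 57.7% in KO, against 59.6% and 64.1% of all peaks.

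Enrichment at these peaks, the authors' ratio of IP over input, ran from 1.09-fold to 15.4-fold in WT (median 1.95) and from 1.32-fold to 10.6-fold in KO (median 1.75). All peaks of each list had medians of 3.74 and 3.15. Enrichment was computed within each genotype, so values from the lists stand side by side and are not a test of change. A false discovery rate (FDR) under 0.05 was given to 12 of the 19 WT peaks, where the share over all WT peaks is 70.2%. The same held for 17 of the 26 KO peaks, against 64.9% of all KO peaks. Each share is near its background.

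**Figure D1:**
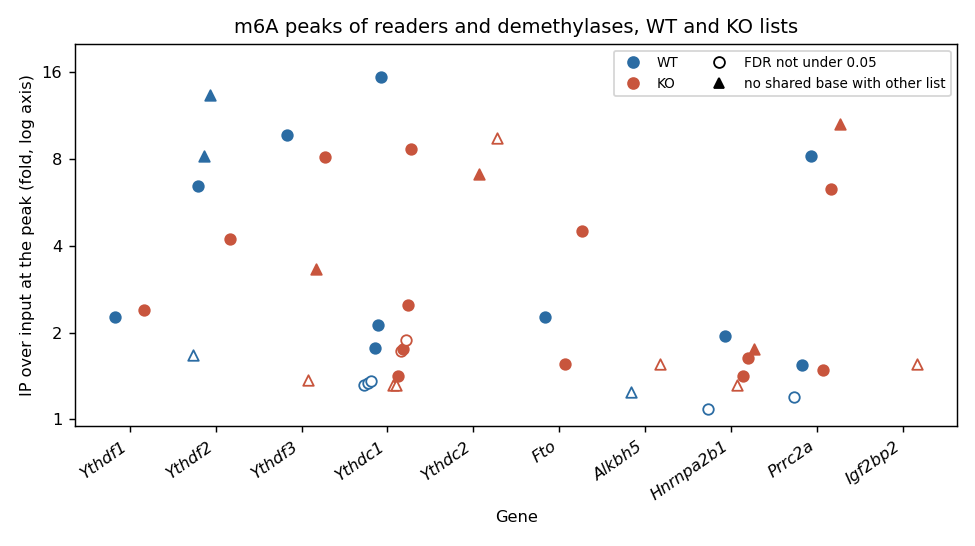
Each point is 1 listed peak, with its gene on the x axis and the authors' enrichment of IP over input on a log y axis, blue for WT and red for KO. Open symbols have an FDR that is not under 0.05 and triangles share no base with a peak of the other list. The highest points are the WT peak of Ythdc1 at 15.4-fold, the WT peak of Ythdf2 at 13.3-fold and the KO peak of Prrc2a at 10.6-fold.

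The number of WT peaks with a KO counterpart depended on the overlap asked for. Of the 19, 15 had 1 or more exonic bases in common with a KO peak (78.9%, 54.4 to 93.9, exact Clopper-Pearson interval at 95%), beside 73.4% of all WT peaks. Of the 26 KO peaks, 15 shared a base with a WT peak (57.7%, 36.9 to 76.6), beside 61.6% of all KO peaks. Asking that 50% of each peak lie in its counterpart left 9 of the 19 and 9 of the 26 as shared, against 52.2% and 41.5% of all peaks. The intervals reflect counting error alone and treat each peak as a separate draw, although several belong to 1 transcript. The 4 unshared WT peaks were 3 of Ythdf2 and 1 of Alkbh5. The 11 unshared KO peaks were spread over Ythdf3, Ythdc1, Ythdc2, Alkbh5, Hnrnpa2b1, Prrc2a and Igf2bp2.

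The exonic bases under the peaks assigned to each gene were compared between the lists, which describes the called peaks and is no test of change in the mark. Of the exonic bases under WT peaks, 100% of those of Hnrnpa2b1 and Prrc2a, 97.8% of Ythdf3 and 95.6% of Ythdf1 were also under a KO peak. The share was 70.1% for Ythdf2, 62.7% for Fto and 39.5% for Ythdc1. It was 0 for Alkbh5, whose WT and KO peaks lay at opposite ends of the transcript, with FDR values of 0.0776 and 0.261. In the other direction, the share of KO bases also under a WT peak was 45.6% for Hnrnpa2b1 and 69.9% for Prrc2a, whose KO peaks covered more than their WT peaks. For Fto this share was 18.6%, but peaks assigned to other genes were not counted. All 360 bases of the Fto exon 3 KO peak lay under a WT peak assigned to Gm45427. So did 240 of the 450 exonic bases of the other Fto KO peak.

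**Figure D2:**
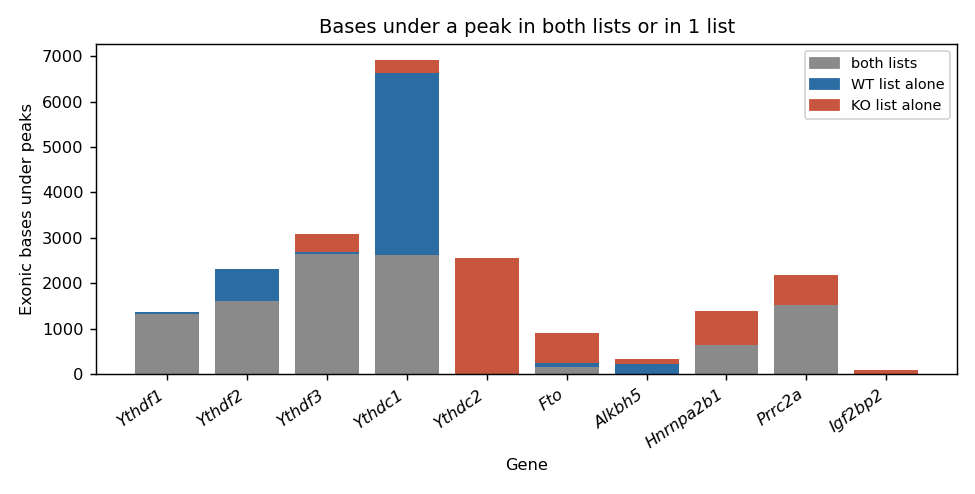
Stacked bars give the exonic bases under peaks assigned to each gene, in grey for both lists, blue for the WT list alone and red for the KO list alone. The WT peak assigned to Gm45427 is not counted, so most of the red Fto bar lies under a WT peak. Ythdc1 has the tallest blue part, and the bars of Ythdc2 and Igf2bp2 are red throughout.

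The cytoplasmic readers Ythdf1, Ythdf2 and Ythdf3 shared a peak layout. In each, a long exonic block was followed by a shorter block towards the 3′ end, and the peak was annotated to the 3′ UTR. The paired blocks were 1337 and 38 bases long in Ythdf1, 1431 and 273 in Ythdf2 and 1599 and 447 in Ythdf3, in WT. These made up the whole peak in Ythdf1 and Ythdf2 and 75.9% of its exonic bases in Ythdf3, where the peak took in 8 blocks. The KO peaks had the same blocks with small changes at their edges: the long block was 60 bases shorter in Ythdf1 (1277) and Ythdf2 (1371), and the last block was shorter by 30 bases in Ythdf2 (243) and by 60 in Ythdf3 (387).

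Ythdf1 (ENSMUSG00000038848, minus strand), a reader tied to translation, had 1 peak per list, at chr2:180905630-180912023 in WT and chr2:180905630-180911963 in KO (build mm10, as listed). Enrichment was 2.27-fold in WT and 2.39-fold in KO, at percentiles 29.5 and 37.2 of each list. It had no row in the authors' deposited table of differences, which holds only peaks with a p under 0.05. Whether this peak was tested there is not known.

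Ythdf2 (ENSMUSG00000040025, minus strand), the reader that recruits the CCR4-NOT deadenylase, had 4 WT peaks and 1 KO peak. The peak in both lists, chr4:132186674-132205562 in WT, was enriched 6.45-fold in WT and 4.21-fold in KO. The other 3 were in WT alone, and those at the start of the gene were among the more enriched ones. They were an exon 1 peak at chr4:132211615-132211855 (13.3-fold, FDR 0.00589) and a 5′ UTR peak at chr4:132212153-132212303 (8.16-fold, FDR 0.0224). A further peak at chr4:132186046-132186256, in the distal 3′ UTR, had 1.67-fold enrichment and an FDR of 0.135. Of all WT peaks at 8-fold or more, 83.3% shared a base with a KO peak. In this gene set, 3 of the 5 with that enrichment did, and the exceptions were these 2 peaks at the Ythdf2 start. Their p-values from the authors' peak calling, 0.00081 and 0.0033, are weak: 30.8% of all WT peaks had a p of at most 1e-10. In the authors' deposited table the start peaks had no row, so no difference between genotypes is given for them there.

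Ythdf3 (ENSMUSG00000047213, plus strand), which acts together with the other YTHDF proteins, had the widest peak of this group, with 2697 exonic bases in WT (chr3:16183241-16214401) and 2667 in KO. Enrichment was 9.69-fold in WT and 8.13-fold in KO, at percentiles 81.6 and 80.7 of each list. In KO, 2 further 3′ UTR peaks were listed. One, chr3:16216856-16217037, ended at the last base of the RefSeq gene and had 3.31-fold enrichment (FDR 0.00129). The other, chr3:16216137-16216318, had 1.37-fold enrichment and an FDR of 0.0617.

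Ythdc1 (ENSMUSG00000035851, plus strand), the nuclear reader, had the most peaks of the set, 6 in WT and 8 in KO, where the median gene had 1. As many or more were found in 0.881% of genes in WT and 0.266% in KO. Part of this count comes from peaks that overlap each other in the same list: the WT peaks that begin at 86815694 and 86815702 cover the same place, as do 2 pairs in KO. All of these were annotated by the authors to exons 3 or 4 of another Ensembl gene within Ythdc1, and 1 of the 6 had an FDR under 0.05. The strongest WT peak, chr5:86823392-86829745, was enriched 15.4-fold over 5210 exonic bases. The KO peak inside it, chr5:86828187-86829685, was enriched 8.66-fold over 1498 bases. Downstream of it, both lists had a peak near 86830763 (2.13-fold in WT, 2.50-fold in KO) and a peak of 5 blocks with the same boundaries in both, chr5:86831660-86836000 (1.77-fold and 1.42-fold).

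Identical boundaries were uncommon: 687 peaks of each list, 4.11% in WT and 3.27% in KO, had the same blocks in the other list. Ythdc1 had 1 such peak and Hnrnpa2b1 the other of this set.

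Ythdc2 (ENSMUSG00000034653, plus strand), a reader that is also an RNA helicase with a role in meiosis, had peaks in KO alone. A 5′ UTR peak at chr18:44827745-44828466 was enriched 9.45-fold, with an FDR of 0.0617. A peak at chr18:44841310-44850309, annotated to exon 7 of 30, was enriched 7.08-fold with an FDR of 0.0195. Both folds lie high in the KO list (percentiles 86.9 and 76.7) while the p-values, 0.0091 and 0.0026, are weak. No input level was listed for this gene.

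**Figure D3:**
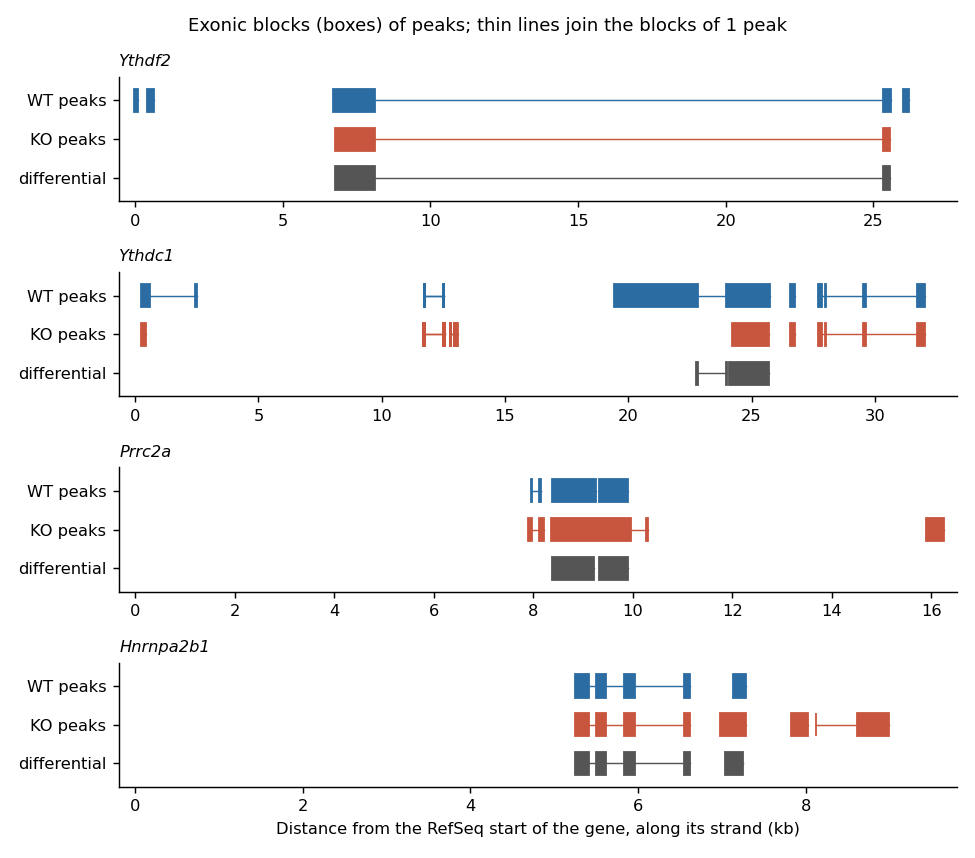
For Ythdf2, Ythdc1, Prrc2a and Hnrnpa2b1, boxes are exonic blocks of listed peaks along the gene in kb from its RefSeq start, introns included, with WT peaks in blue, KO peaks in red and rows of the differences table in grey. The Ythdf2 start carries boxes in the WT row alone, the wide WT box of Ythdc1 has no KO counterpart over its 5′ part, and the 3′ ends of Prrc2a and Hnrnpa2b1 carry boxes in the KO row alone.

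Among the readers without a YTH domain, Hnrnpa2b1 (ENSMUSG00000004980, minus strand), a nuclear RNA-binding protein that acts in splicing and in microRNA processing, had 2 WT and 4 KO peaks, all in the 3′ UTR by annotation. The peak at chr6:51463422-51464797 had the same 4 blocks in both lists, 480 exonic bases, with 1.95-fold enrichment in WT and 1.63-fold in KO. Its p-values were 1e-105 and 1.6e-65 although these folds stand at percentiles 21.8 and 13.2. A peak beginning at 51462764 was 150 bases long and enriched 1.09-fold in WT (FDR 0.169), and 300 bases long and enriched 1.41-fold in KO (FDR 5.01e-15). The remaining KO peaks lay nearer the 3′ end, at 1.32-fold (FDR 0.0631) and 1.75-fold (FDR 0.0126).

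Prrc2a (ENSMUSG00000024393, minus strand), a large proline-rich protein described as a reader, carried its strongest WT mark in exon 16 of 31. In WT this exon had 2 peaks side by side, chr17:35156067-35156936 at 8.18-fold and chr17:35155409-35156008 at 1.55-fold. In KO 1 peak spanned both, chr17:35155014-35156966, at 6.28-fold over 1647 exonic bases. Both lists also had a peak in exon 15, at 1.20-fold in WT (FDR 0.139) and 1.48-fold in KO (FDR 0.000302). KO alone had a peak at the 3′ end, chr17:35149075-35149435, at 10.6-fold (FDR 0.000209), the highest enrichment among the KO peaks of this gene set.

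Igf2bp2 (ENSMUSG00000033581, minus strand), a KH-domain protein that stabilises methylated transcripts, had 1 short KO peak of 91 bases in its 3′ UTR, chr16:22060566-22060657, at 1.56-fold with an FDR of 0.261. No WT peak and no input level were listed for it.

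The demethylases carried 1 WT peak each, and in KO Fto had 2 peaks and Alkbh5 1, where the median gene had 1 in each list. Fto (ENSMUSG00000055932, plus strand), which also acts on the methylated adenosine next to the cap, had a WT peak that began at an annotated RefSeq transcript start and was enriched 2.26-fold (chr8:91313524-91390659, 241 exonic bases, FDR 0.000102). The KO peak that overlapped it, chr8:91313614-91391512, was enriched 4.49-fold over 450 exonic bases (FDR 0.00741). A peak in exon 3 of 9 was listed for KO at chr8:91409255-91409615, with 1.56-fold enrichment (FDR 0.01). In WT the same place was covered by a peak at chr8:91390718-91441766 that the authors assigned to Gm45427, a gene on the opposite strand, with 2.55-fold enrichment (FDR 3.39e-07), so the exon 3 peak was not a KO peak alone.

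Alkbh5 (ENSMUSG00000042650, plus strand) had 1 peak per list, at different places. The WT peak, chr11:60538109-60538320, lay in the 5′ UTR at 1.25-fold (FDR 0.0776). The KO peak, chr11:60558391-60558512, lay at the end of the 3′ UTR at 1.56-fold (FDR 0.261). Neither passed an FDR of 0.05.

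At transcript starts, peaks covered the first 50 bases after the RefSeq start in the table of start windows for 3 genes of the set: Ythdf2 and Fto in WT alone, and Ythdc1 in both lists. For Fto and Ythdc1 this start lies 0.16 and 0.29 kb inside the outermost start of the gene. The distances in the plot of peak maps are counted from that outermost start. The peak at the Ythdc1 start was enriched 1.36-fold in WT (FDR 0.0933) and 1.89-fold in KO (FDR 0.135). Neither passed the FDR threshold used above, while the WT peaks at the Ythdf2 and Fto starts did. The antibody also binds the methylated adenosine that can follow the cap, so these starts are shown by their first 30 bases, 5′ to 3′ (RefSeq, GRCm38.p6). Capitals mark a match to the m6A consensus: A, G or T, then A or G, then AC, then A, C or T.
Ythdf2, chr4:132212227-132212256, minus strand: tgggtcagcgactgtgagagtcagcgctcg
Ythdc1, chr5:86804266-86804295, plus strand: gcgccgcccggcgtcgccatctgtgtctct
Fto, chr8:91313525-91313554, plus strand: agggcgaggggGAACAcggcccacggtggc
The Fto start held the word GAACA, whose first base is base 12 of the window, and it began with an A, whereas the annotated starts of Ythdf2 and Ythdc1 began with a T and a G. No match was found within the first 50 bases of the other starts on the transcript strand, which says only that these letters are not in the window. RefSeq windows were matched for 8 of the 10 genes, without Ythdc2 and Ythdf3, and 1 of their 9 windows held the motif. Ythdc2 had a 5′ UTR peak in KO alone that began 0.02 kb from its gene start (FDR 0.0617). Over all RefSeq start windows of 50 bases, 54.4% held it on the transcript strand and 55.2% on the opposite strand. Of the windows touched by a WT peak 42.4% held it, and of those touched by a KO peak 42.8%.

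The 3′ ends of the transcripts were looked at after the peaks had been seen. In KO, 3 peaks ended exactly at the RefSeq 3′ end of their gene, those of Ythdf3, Prrc2a and Alkbh5, and no WT peak did. Over all peaks whose gene has 1 RefSeq entry, 6.33% ended there in WT and 7.85% in KO. Among peaks that shared no base with the other list the shares were 3.28% in WT and 8.43% in KO. A further KO peak, chr2:180904376-180904526, covered the last 150 bases of Ythdf1 but was assigned by the authors to Gm14342 (1.85-fold, FDR 0.0141). Another, chr8:91668198-91668439, lay across the 3′ end of Fto and was assigned to Gm2875 (1.70-fold, FDR 0.153). Likewise, a KO peak in exon 11 of Prrc2a was assigned to Gm23442 (1.35-fold, FDR 0.000363).

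Differences of enrichment between the genotypes were listed for 6 of the 10 genes, where 36.0% of all genes with a listed peak have one. The authors' deposited table gave 7 of the 9 peaks as lower in KO, beside 69.6% of all listed peaks, and 2 as higher, beside 30.4%. An FDR under 0.05 was given there to 7 of the 9 (79.6% of all listed peaks), of which 5 were lower (57.0% of all listed peaks were lower with that FDR). The median log2 ratio of KO over WT was -0.39 for the 9 peaks and -0.40 for all 6050 in the authors' deposited table. The share of lower peaks (77.8%, 40.0 to 97.2, exact interval) and the median are therefore close to those of the whole table. The p-values there compare the reads of single libraries, not genotypes.

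Ythdc1 stood lowest. Its 3′ UTR peak at chr5:86828068-86829685 had a log2 ratio of -1.18 (0.441 of the WT enrichment, FDR 1e-13) in the authors' deposited table, at percentile 6.37 of all listed ratios. Peaks of the same part and strength class had a median of -0.46 there. Strength classes here are 5 equal classes of the table's peaks by their own p. Just upstream, a peak of 91 bases in exon 9 of 16 had a log2 ratio of -0.97 with an FDR of 0.11 in the authors' deposited table, so it did not pass. Both lie within the wide WT peak, so they are not separate WT peaks. The KO list had a peak at the first of these places and none at the second. The part of the wide WT peak upstream of both had no row in the authors' deposited table. No difference between genotypes is given there for that part.

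The cytoplasmic readers were near the centre of the table. Ythdf2 had a log2 ratio of -0.40 (FDR 4.79e-09) and Ythdf3 one of -0.37 (FDR 1e-17) in the authors' deposited table, at percentiles 50.3 and 53.1. Strong peaks with the 3′ UTR label, as these have, were nearly all lower: 96.5% of 995 in their class, with a median of -0.45 in the authors' deposited table. The Fto exon 3 peak, at -0.39 in the authors' deposited table, had an FDR of 0.0955 and did not pass. Its class, weak peaks in exons, had a median of -0.81 and 74.2% lower.

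Hnrnpa2b1 and Prrc2a each had peaks in both directions on 1 transcript. In Prrc2a exon 16, the authors' deposited table gave -0.44 (FDR 2e-11) for chr17:35156097-35156936 and 0.20 (FDR 0.0112) for chr17:35155409-35156008. These peaks are 89 bases apart, with the lower one on the 5′ side. For Hnrnpa2b1 it gave -0.12 (FDR 0.00741, authors' deposited table) for the 4-block peak and 0.37 (FDR 9.12e-05) for a peak 418 bases further to the 3′ side, chr6:51462793-51463004. In both genes the lower peak was in strength class 1, the strongest, while the higher one was in class 3 in Prrc2a and class 4 in Hnrnpa2b1. Over the whole table, 96.4% of peaks were lower in the strongest class and 41.5% in the weakest.

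Among genes with at least 2 differential peaks, 31.8% had both directions (328 of 1032), as had 2 of the 3 in this set, the exception being Ythdc1. Opposite peaks as close as those of Prrc2a, at most 100 bases apart without overlap, were found in 7 genes. The higher Prrc2a peak went against its class, exon peaks of middle strength, in which 89.0% were lower. The higher Hnrnpa2b1 peak did not, since 39.9% of its class were lower, with a median of 0.39 in the authors' deposited table.

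**Figure D4:**
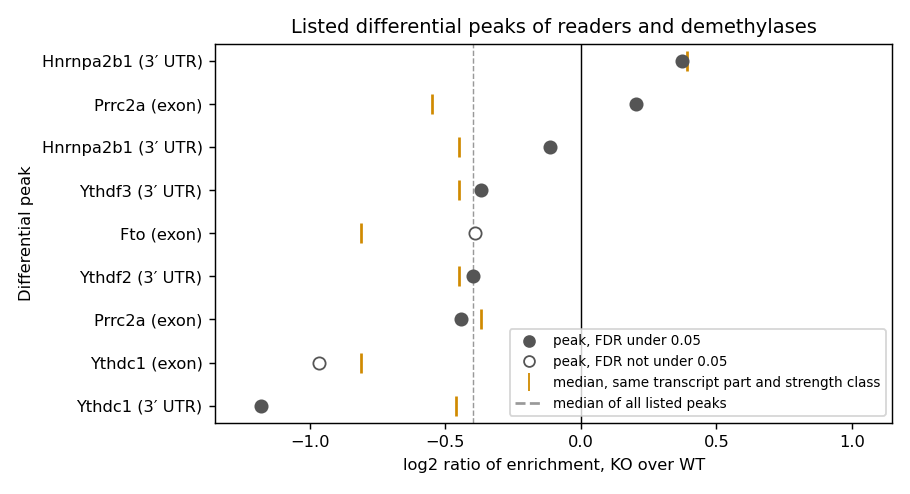
Circles give the log2 KO over WT ratio of enrichment for the 9 listed differential peaks in the authors' deposited table, open where the FDR is not under 0.05, ordered by ratio. Orange ticks are the median of listed peaks of the same transcript part and strength class, and the dashed line is the median of all listed peaks at -0.40. The Ythdc1 3′ UTR peak lies furthest left of its tick and the higher Prrc2a peak furthest right.

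Input levels were listed for the 6 genes with a differential peak. The order was the same in both genotypes: Hnrnpa2b1, Prrc2a, Ythdf3, Ythdf2, Ythdc1, Fto. WT levels in FPKM were 65.1, 30.8, 19.0, 9.70, 3.59 and 2.79 in that order, and KO levels were 74.2, 31.8, 22.3, 12.6, 4.48 and 3.33. Hnrnpa2b1 thus stood at percentile 92.3 of listed genes by mean level and Fto at 19.3. In bulk RNA, fewer cells of a type and less RNA per cell cannot be told apart. Without replicates, it is not known which neighbours in this order differ beyond their spread.

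All 6 levels were higher in KO, as were those of 69.0% of the 3679 listed genes whose mean over both inputs reached 1 FPKM. On the log2(FPKM + 1) scale, which understates differences of low genes, KO minus WT was 0.35 for Ythdf2, 0.26 for Ythdc1, 0.22 for Ythdf3, 0.19 for Fto and Hnrnpa2b1 and 0.04 for Prrc2a. Their median was 0.20, against 0.07 over all listed genes, and 5 of 6 lay above that value, Prrc2a below it. Ythdf2 stood at percentile 94.4 of differences. The authors' deposited table gave p-values from 0.637 for Ythdf2 to 0.973 for Prrc2a for the input difference and an adjusted p of 1 for each. Genes with lower peaks alone had a median input difference of 0.10 and genes with higher peaks alone one of 0.00. The same input libraries enter the enrichment, so peak ratio and input difference are not independent measures.

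**Figure D5:**
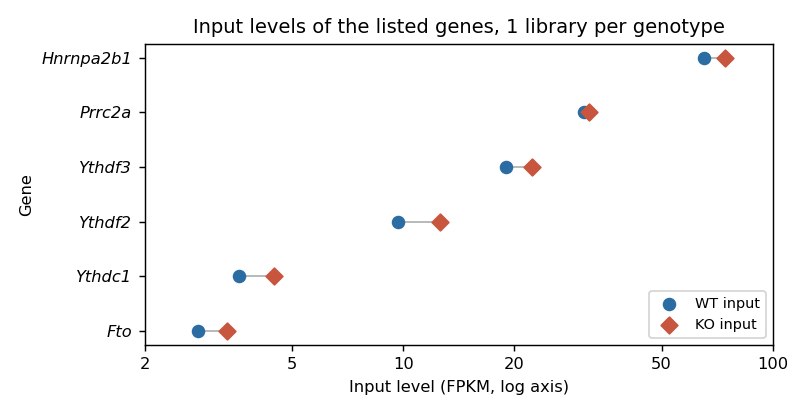
Points give the input level in FPKM on a log x axis for the 6 genes with a listed level, blue circles for WT and red diamonds for KO, 1 library each, joined by a grey line per gene. Each red diamond lies to the right of its circle, with the smallest step for Prrc2a.

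Other genes of the m6A pathway were counted from lists. Of 12 writer genes, 11 had a peak and 6 had differential peaks, 8 lower and none higher in the authors' deposited table, 7 of them at an FDR under 0.05. Of all listed differential peaks 69.6% were lower, 57.0% lower with that FDR, and 36.0% of all genes with a peak had a differential one. The median log2 ratio of these writer peaks was -0.39, equal to that of the readers and demethylases. Both are near the median of all listed differential peaks, -0.40. Of 15 other m6A-binding proteins, 5 had a peak. Their differential peaks, in 3 genes, were 1 lower and 3 higher (69.6% and 30.4% of all listed peaks), all at an FDR under 0.05, as were 79.6% of all. The higher ones belonged to Fxr2 at 1.81, a relative of the fragile X protein, and to the initiation factor subunits Eif3a at 0.65 and Eif3h at 0.49 in the authors' deposited table. Eif3a also had the lower one, at -0.34.

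Of 22 partners of YTH readers, 16 had a peak and 6 a differential one, 4 lower and 2 higher, near the shares over all genes and peaks (36.0% with a differential peak, 69.6% lower). The lower peaks, all at an FDR under 0.05, included those of the CCR4-NOT subunits Cnot9 at -1.54 and Cnot4 at -0.94, of Upf1, a helicase of nonsense-mediated decay, at -0.53 and of the export receptor Nxf1 at -0.28 in the authors' deposited table. The higher peaks, of Cnot8 at 1.88 (FDR 0.0501) and of the splicing factor Srsf3 at 1.20 (FDR 0.0912), did not pass an FDR of 0.05 in the authors' deposited table. Cnot9 and Cnot8 encode subunits of the same deadenylase complex, and each had listed peaks in 1 genotype alone, Cnot9 in WT and Cnot8 in KO. Cnot2 was in KO alone too, while Cnot1, Cnot3, Cnot4, Cnot6 and Cnot7 were in both lists. Over all genes with a listed peak, 10.4% were in WT alone and 24.2% in KO alone.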

How the data were processed

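Groups were taken from sample titles, giving 4 libraries, 1 per group. Per the submitters' processing notes, the tools were HISAT2, fastp, StringTie, edgeR, ChIPseeker and HOMER on build mm10, with no step stated for each. The peak caller was not given in the sources used here. Per the file headers, the authors deposited for each peak an enrichment (the ratio IP over input), a p-value and a log10 FDR, and for differential peaks a log2 ratio of KO over WT with its p-value. Input levels are FPKM, per the file headers, with the authors' p and adjusted p. FPKM and the log2 ratio are the authors' values and were not recomputed.

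Genes were matched by listed name. Listed positions are printed unchanged. In the lists, start plus 1 falls on a RefSeq gene start for 887 WT peaks and the start itself for 90, so exonic blocks were counted from start plus 1. Overlap needed 1 exonic base, and strand was ignored. Input differences used log2(FPKM + 1) for genes whose mean level reached 1 FPKM. No test was run, as there is 1 library per group. Overlap counting was tested on simulated data. Planned motif counts within peaks were not run, since no genome was used, and RefSeq start windows were searched in their place. Members and lists were chosen with earlier results of these data known. All 10 genes are named by rule, and genes of the other lists were named after their values were seen. Alternatives were stricter folds, p-values and FDR, other overlap rules, pseudocounts, filters and centring. Tables were handled in Python 3.11.15 with pandas 2.3.3 and numpy 2.4.6, intervals came from scipy 1.17.1 and plots from matplotlib 3.10.9.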

Additional observations from a re-analysis of the deposited data

How the results depend on the processing

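Counts of peaks depended on the threshold. Of 19 WT and 26 KO peaks, 6 and 8 had at least 4-fold enrichment (48.0% and 40.5% of all peaks), 7 and 7 a p of at most 1e-10 (30.8% and 24.5%), and 12 and 17 an FDR under 0.05, while all overlapped the RefSeq extent of their gene, an alternative chosen after seeing the data in place of exon overlap, which was not run. With a reciprocal overlap of 50%, 9 peaks of each list were shared in place of 15 (52.2% of all WT and 41.5% of all KO peaks), and with whole spans 15 were (74.1% and 62.5%). Of the 7 lower differential peaks, 1 had a log2 ratio of at least 1 in size, 4 a p under 0.001 and 5 an FDR under 0.05. Of the 2 higher ones, 0, 1 and 2 did. Set against the median of the whole table, 3 peaks were lower and 6 higher. The median input difference of 0.20 was 0.24 with a pseudocount of 0.1, 0.22 with 0.5 and 0.20 without the filter on low values. With a mean of at least 5 FPKM it was 0.20, over 4 of the 6 genes. After the median of all listed genes was subtracted it was 0.13. Motif alternatives within peaks were not run. No paired analysis was possible because each group has 1 library, and for the same reason no replicate could be left out.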
